A study of Mus musculus with 6 samples.

Results

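The 10 collagen and matrix genes described here are Col1a1, Col1a2, Col2a1, Col3a1, Col5a1, Col5a2, Fn1, Sparc, Bgn and Fmod, out of 11175 genes with a deposited expression value. They were chosen because their transcripts were present in libraries of CD8+ T cells and nearly absent from 1 of them, DOPAC replicate 1. That choice used the comparison of DOPAC with control, so the levels below are a description and no test of the 10 genes is given. Splenic CD8+ T cells of wild-type (WT) mice were stimulated for 48 h with antibodies to CD3, the part of the antigen receptor complex that signals, and to CD28, a costimulatory receptor. The 3 control libraries came from cells without further treatment and the 3 DOPAC libraries from cells stimulated in the presence of DOPAC (3,4-dihydroxyphenylacetic acid), a breakdown product of dopamine. The sources used here give no dose of DOPAC and no age of the mice, and they do not say whether replicates were separate animals or cultures. Any p-value of the comparison therefore rests on the spread of these 6 libraries alone, and that spread may be technical.

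Collagens are built from 3 protein chains wound into a triple helix, in which glycine recurs once in each triplet of residues. Types I, II, III and V are fibrillar collagens. They are secreted by fibroblasts, chondrocytes and other mesenchymal cells, and type II is the collagen of cartilage. Fibronectin links collagen to cell surface integrins, SPARC binds collagen and other matrix proteins, and biglycan and fibromodulin are small leucine-rich proteoglycans that bind collagen fibrils. T cells are not known as producers of fibrillar collagen. They meet it in tissues through integrins and other receptors.

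The 6 collagen members share the coding pattern of the collagen triple helix, as any set of fibrillar collagens would. In the longest annotated coding sequence of each (GENCODE M21, build GRCm38), a glycine codon opened each triplet of codons over an unbroken run of 338 triplets in Col1a1, 339 in Col1a2, 339 in Col2a1, 344 in Col3a1, 338 in Col5a1 and 339 in Col5a2. The runs made up between 55.2% (Col5a1) and 74.1% (Col1a2) of the codons. In Fn1, Sparc, Bgn and Fmod the longest such run was 1 or 2 triplets. The first 54 coding bases of each run are printed to show how the genes resemble and differ from each other, with the glycine codon that opens each triplet in capitals and other codons, a few of them also for glycine, in lower case.
Col1a1: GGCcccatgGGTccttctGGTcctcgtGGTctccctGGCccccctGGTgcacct
Col1a2: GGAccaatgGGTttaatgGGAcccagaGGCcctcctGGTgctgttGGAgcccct
Col2a1: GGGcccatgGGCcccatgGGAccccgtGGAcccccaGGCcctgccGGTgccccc
Col3a1: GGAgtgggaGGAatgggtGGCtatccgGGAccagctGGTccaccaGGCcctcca
Col5a1: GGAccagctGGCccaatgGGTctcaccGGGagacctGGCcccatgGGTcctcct
Col5a2: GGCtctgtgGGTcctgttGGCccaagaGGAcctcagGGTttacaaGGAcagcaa

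In Fn1 the known cell-binding site of fibronectin, which integrins recognise, is shown with its arginine, glycine and aspartate codons in capitals.
Fn1: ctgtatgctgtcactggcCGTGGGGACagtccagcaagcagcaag

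Despite the glycine repeat, few stretches of these transcripts occurred in another gene. Of all 31-base stretches in the transcripts of each member, on either strand, between 0% (Col2a1 and Fmod) and 3.89% (Fn1) also occurred in a transcript of another gene. For Col1a1 it was 0.0459%. For Sparc it was 1.65%, with no overlapping gene annotated. Exons of 3 members overlap another annotated gene. These were Fn1 with Apol7d on the opposite strand, Col5a1 (2.18%) with 2810430I11Rik and Gm13372 on the opposite strand, and Col3a1 (1.12%) with the miRNA gene model Gm47302 on its own strand. The libraries do not mark strand, so reads in those overlaps cannot be assigned to 1 gene.

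All 10 genes lie in separate places of the genome apart from 1 pair (coordinates from GENCODE M21 on GRCm38, also called mm10). Col1a1 lies on chromosome 11 at 94936224 to 94953042, and Col1a2 on chromosome 6 at 4504814 to 4541544. Col2a1 lies on chromosome 15 at 97975602 to 98004695, and Col5a1 on chromosome 2 at 27886425 to 28039514. Col3a1 (45311538 to 45349706) and Col5a2 (45374321 to 45503282) are neighbours on chromosome 1, on opposite strands and with 24614 bp and no annotated gene between them. The same chromosome carries Fn1 at 71585520 to 71653200 and Fmod at 134037254 to 134048277. Sparc lies on chromosome 11 at 55394500 to 55423183 and Bgn on the X chromosome at 73483602 to 73495933.

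The 10 transcripts were low but steady in the controls, were lower in DOPAC replicates 2 and 3, and were close to 0 in DOPAC replicate 1. Expression is given as FPKM, fragments per kilobase of transcript scaled to the size of the library, which is meant to correct for transcript length. The lengths used are not given, so levels of different genes can be set side by side only roughly. The 10 genes together summed to 69.5, 64.3 and 60.98 FPKM in control replicates 1, 2 and 3, and to 1.08, 37.6 and 38.9 FPKM in DOPAC replicates 1, 2 and 3. The group means were 64.9 ± 4.30 and 25.9 ± 21.5 FPKM (SD, n = 3 each), and 38.3 ± 0.921 FPKM with DOPAC when replicate 1 was left out (SD, n = 2). The 3 controls lay above all 3 DOPAC libraries, and the DOPAC spread came from replicate 1. At most 0.0227% of all FPKM of a library belonged to these 10 genes.

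**Figure D1:**
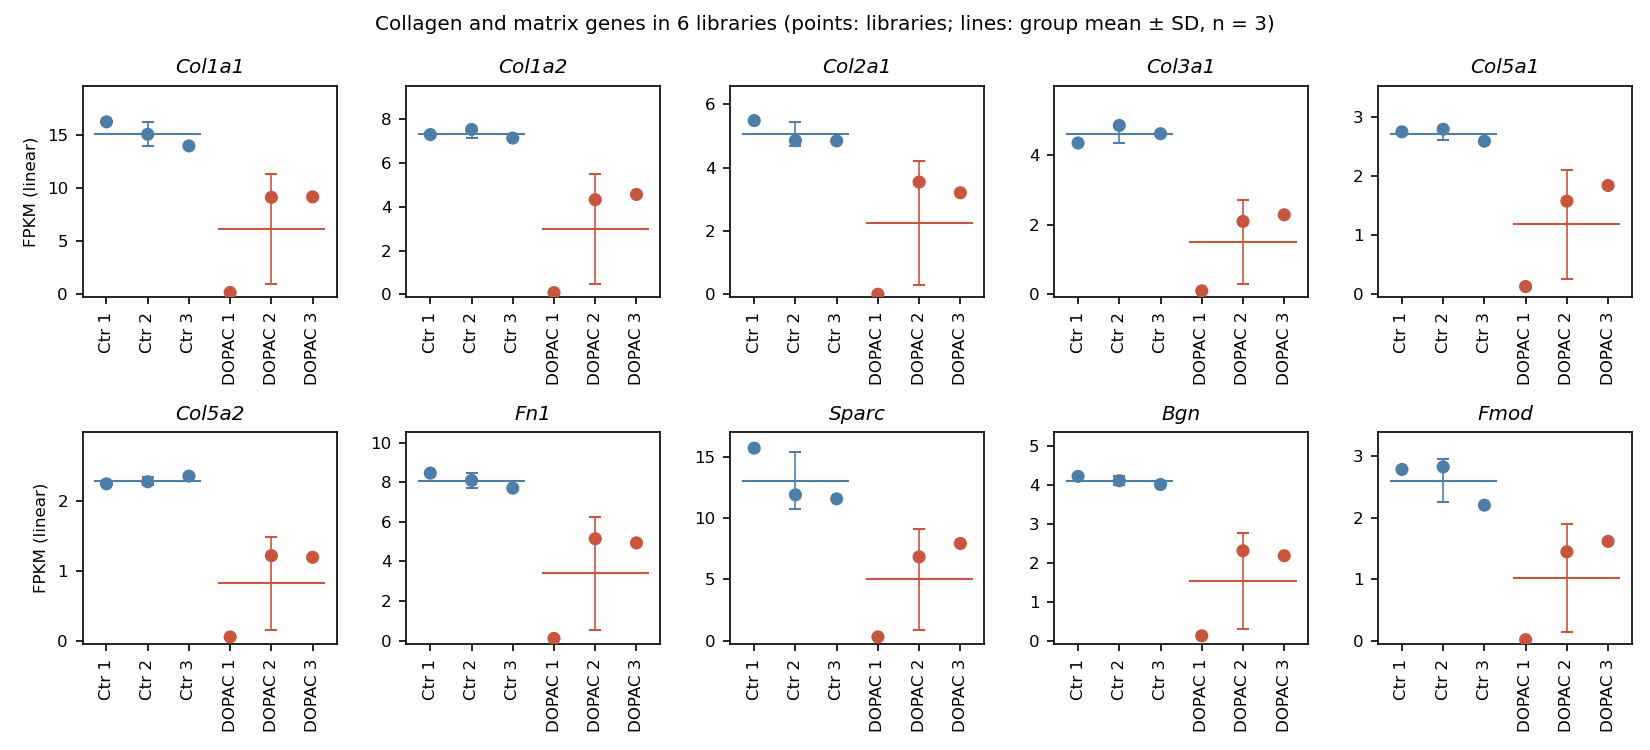
FPKM (linear axis) of each collagen or matrix gene in the 3 control libraries (blue) and the 3 DOPAC libraries (red), with lines and bars for the group mean ± SD (n = 3). In every panel DOPAC replicate 1 lies near 0 while DOPAC replicates 2 and 3 lie together below the controls, so the DOPAC mean falls where no library was measured.

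Type I collagen, the main fibrillar collagen of skin, bone and tendon, gave the highest collagen values. Col1a1, its α1 chain, measured 16.2, 15.1 and 13.96 FPKM in control replicates 1, 2 and 3, and 0.160, 9.12 and 9.16 FPKM in DOPAC replicates 1, 2 and 3. The groups did not overlap, and DOPAC replicates 2 and 3 stood at 60.6% of the control mean. The log2 fold change, which is the difference of mean log2(FPKM + 1) between DOPAC and control and understates the change of low genes, was -1.71 with all 6 libraries and -0.66 without DOPAC replicate 1. Col1a2, the α2 chain, measured 7.30, 7.54 and 7.15 FPKM in the controls and 0.0732, 4.33 and 4.57 FPKM with DOPAC. It followed Col1a1 closely, with log2 fold changes of -1.39 and of -0.61 without DOPAC replicate 1. A type I molecule is normally made of a pair of α1 chains and a single α2 chain. An FPKM ratio does not measure this, since it depends on the transcript lengths used, which are not given. The annotated exons sum to 6563 bp for Col1a1 and 12426 bp for Col1a2. The ratio of Col1a1 to Col1a2 in FPKM was 2.22, 1.997 and 1.95 in control replicates 1, 2 and 3 and 2.19, 2.11 and 2.01 in DOPAC replicates 1, 2 and 3. It thus kept the same range in the controls and in DOPAC replicates 2 and 3. The DOPAC replicate 1 value rests on levels near 0 and is not read, since other ratios differed in that library. There Col1a1 was 1.67 times Col3a1, against 3.03 to 4.37 times elsewhere. Col5a1 was 2.43 times Col5a2 there, against 1.10 to 1.55 times elsewhere.

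Col2a1, the single chain of cartilage collagen, measured 5.49, 4.86 and 4.85 FPKM in the controls, was listed at 0 in DOPAC replicate 1 and measured 3.55 and 3.21 FPKM in DOPAC replicates 2 and 3. It was the only member listed at 0 in any library. Its 2 remaining DOPAC libraries averaged 66.7% of the control mean, the highest share of the 10 genes, and its log2 fold change was -1.18, or -0.47 without DOPAC replicate 1. Few cell types outside cartilage and its precursors are known to make type II collagen in quantity.

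Type III collagen accompanies type I in soft tissues and in the reticular fibres of the spleen. Col3a1 measured 4.34, 4.84 and 4.61 FPKM in the controls and 0.0960, 2.09 and 2.28 FPKM with DOPAC. Its DOPAC replicates 2 and 3 stood at 47.5% of the control mean, the lowest share of the 10 genes, and its log2 fold change was -1.33, or -0.81 without DOPAC replicate 1. Relative to Col3a1, Col1a1 was 3.74, 3.11 and 3.03 times as high in the controls and 4.37 and 4.02 times in DOPAC replicates 2 and 3. This ratio ran from 3.03 to 4.37 in the 5 libraries, against 1.95 to 2.22 for the type I chains.

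Type V collagen is a minor component that sits inside type I fibrils and regulates their thickness. Col5a1 measured 2.76, 2.80 and 2.60 FPKM in the controls and 0.130, 1.58 and 1.85 FPKM with DOPAC. Col5a2 measured 2.24, 2.27 and 2.35 FPKM in the controls and 0.0537, 1.22 and 1.19 FPKM with DOPAC. In both genes every DOPAC library lay below every control. Their log2 fold changes were -0.88 and -0.93, and -0.46 and -0.58 without DOPAC replicate 1. The neighbours Col3a1 and Col5a2 had the lowest levels relative to control in DOPAC replicates 2 and 3, at 47.5% and 52.6%.

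Fibronectin is an adhesive glycoprotein of plasma and matrix that many cell types secrete. Fn1 measured 8.46, 8.09 and 7.70 FPKM in the controls and 0.116, 5.15 and 4.94 FPKM with DOPAC. All DOPAC libraries lay below the controls, and the log2 fold change was -1.40, or -0.59 without DOPAC replicate 1.

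Sparc, which encodes a collagen-binding matrix protein also called osteonectin, was the most variable member among the controls. It measured 15.7 FPKM in control replicate 1 and 11.9 and 11.6 FPKM in control replicates 2 and 3, against 0.308, 6.83 and 7.92 FPKM with DOPAC. Its control replicate 1 was 1.34 times the mean of the other 2 controls, the highest such ratio among the members, for which the lowest was 0.918 (Col3a1). The log2 fold change was -1.63, or -0.74 without DOPAC replicate 1 and -1.50 without control replicate 1.

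Both proteoglycan genes were lower in every DOPAC library than in any control. Bgn, which encodes biglycan, measured 4.22, 4.10 and 4.01 FPKM in the controls and 0.126, 2.31 and 2.18 FPKM with DOPAC, a log2 fold change of -1.16 (-0.66 without DOPAC replicate 1). Fmod, which encodes fibromodulin, a regulator of fibril assembly in tendon and cartilage, measured 2.78, 2.82 and 2.202 FPKM in the controls and 0.0162, 1.44 and 1.61 FPKM with DOPAC. Its log2 fold change was -0.94, or -0.51 without DOPAC replicate 1. DOPAC replicate 1 was the lowest library for both genes.

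In order of control mean the genes ran Col1a1 (15.1 ± 1.14 FPKM), Sparc (13.0 ± 2.29), Fn1 (8.09 ± 0.379), Col1a2 (7.33 ± 0.197), Col2a1 (5.07 ± 0.369), Col3a1 (4.60 ± 0.253), Bgn (4.11 ± 0.104), Col5a1 (2.72 ± 0.107), Fmod (2.60 ± 0.347) and Col5a2 (2.29 ± 0.0572; SD, n = 3 each). The control values overlapped in 3 of the 9 neighbouring pairs, Col1a1 with Sparc, Col5a1 with Fmod and Fmod with Col5a2. Of the other pairs, Col2a1 and Col3a1 were separated by less than 0.01 FPKM (4.848 against 4.842 FPKM). Col1a1 was the highest member in 5 of the 6 libraries, and in DOPAC replicate 1 Sparc was.

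The makeup of the sum was nearly the same in controls and in DOPAC replicates 2 and 3. Col1a1 held 23.4%, 23.4% and 22.9% of it in control replicates 1, 2 and 3 and 24.3% and 23.6% in DOPAC replicates 2 and 3. Fn1 held between 12.2% and 13.7% in these 5 libraries. Col3a1 held 6.24%, 7.53% and 7.55% in the controls and 5.55% and 5.86% in DOPAC replicates 2 and 3, so that its DOPAC shares lay below those of the controls. In DOPAC replicate 1 the sum was too low for its makeup to be read.

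**Figure D2:**
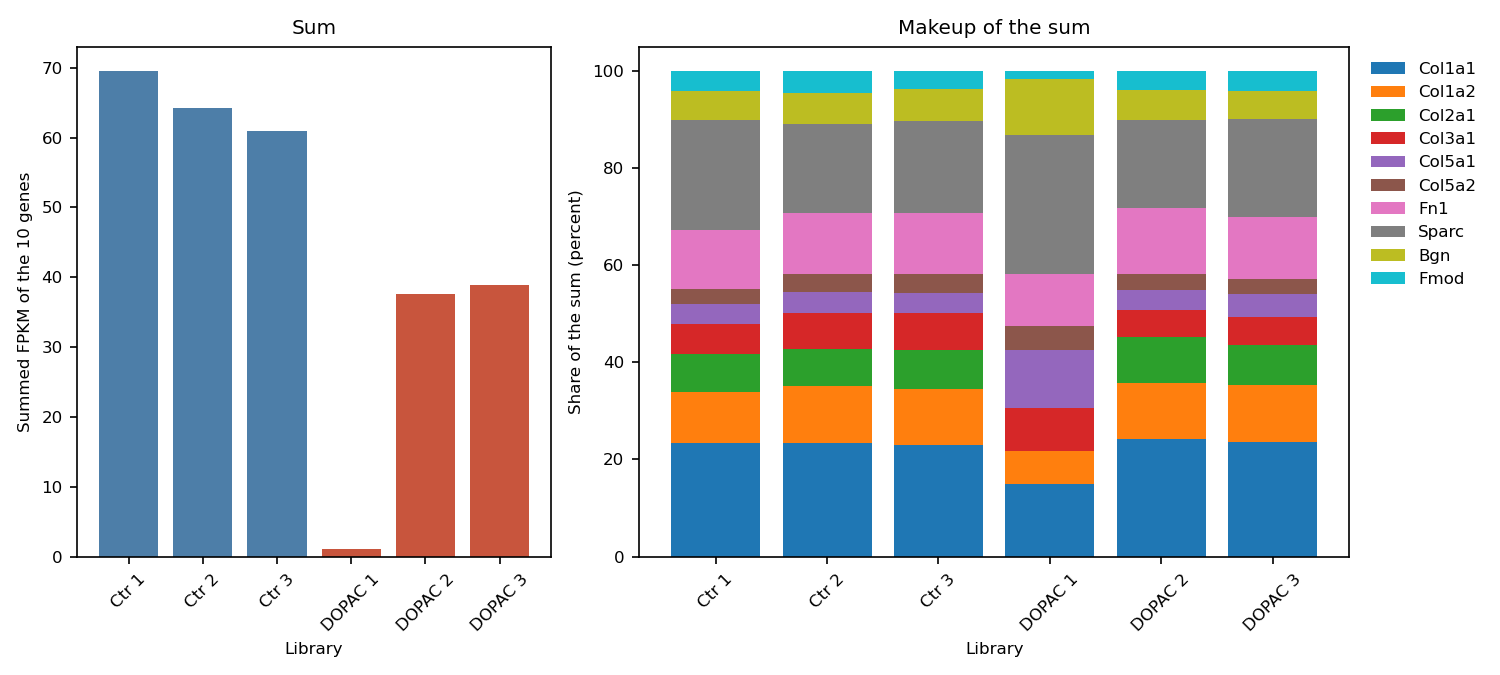
Left, summed FPKM of the 10 collagen and matrix genes in each library (linear axis from 0). Right, the share of each gene in that sum in percent. The sum is 60.98 to 69.5 FPKM in the controls, 37.6 and 38.9 FPKM in DOPAC replicates 2 and 3 and 1.08 FPKM in DOPAC replicate 1, while the shares are similar in the 5 libraries other than DOPAC replicate 1.

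Relative to their own control mean the 10 genes lay close together in every library. DOPAC replicate 1 held between 0% (Col2a1) and 4.79% (Col5a1) of the control mean, with a median of 1.76%. DOPAC replicate 2 held between 45.5% (Col3a1) and 70.02% (Col2a1), with a median of 57.2%, and DOPAC replicate 3 between 49.6% (Col3a1) and 67.9% (Col5a1), with a median of 60.9%. Over all 10887 genes tested the medians were 104.1% for DOPAC replicate 1 and 104.4% for the mean of replicates 2 and 3. DOPAC replicates 2 and 3 differed from each other by at most 1.17-fold in any member, and 6 of the 10 genes were higher in replicate 3. In a bulk sample, fewer cells that carry a transcript and less of that RNA per cell cannot be told apart. The FPKM also do not show which cells the reads came from, and whether such low levels include RNA or reads carried over from other samples was not tested.

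**Figure D3:**
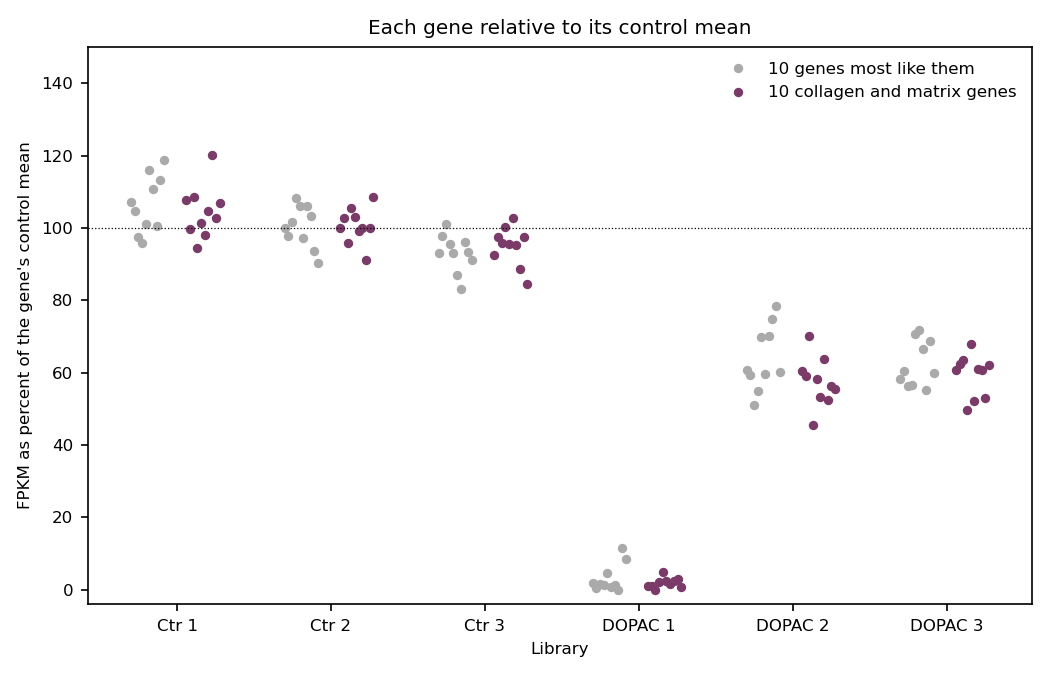
FPKM of each gene as a percent of its own control mean (dotted line, 100%), 1 point per gene and library, for the 10 collagen and matrix genes (purple) and the 10 genes whose levels over the 6 libraries were most like their mean (grey). The purple points lie between 0% and 4.79% in DOPAC replicate 1 and between 45.5% and 70.02% in DOPAC replicates 2 and 3.

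The control values of the members varied little. Their coefficient of variation over the 3 controls ran from 2.50% (Col5a2) to 17.6% (Sparc), with a median of 5.09%. Among the 5786 tested genes with a control mean in the same range the median was 23.5%, and 4.36% of them were at or below 5.09%. Control replicate 1 otherwise stood apart from the rest. It accounted for 50.6% of all squared deviation from group means, over genes it correlated with no other library above 0.917, and the median gene measured 0.782 times the mean of the other 2 controls in it. For the members that ratio had a median of 1.06, and without control replicate 1 their median log2 fold change was -1.25, equal to that with all libraries to 2 decimals. The number of libraries (3 against 3) and an unknown depth limit the precision, since FPKM hold no read counts and no counting interval can be given for values near 0.

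Over all genes the comparison called none. Limma's moderated test with Benjamini-Hochberg adjustment gave 0 of 10887 genes (0%) under an adjusted p of 0.05, with a lowest adjusted p of 0.801, while 456 genes (4.19%) had an unadjusted p under 0.05. Without DOPAC replicate 1 the count was again 0 (0%; lowest adjusted p 0.880; 251 genes at an unadjusted p under 0.05). Without control replicate 1 it was 2 (0.0184%), neither of them a member. All 10 members had a mean over the 6 libraries of at least 1 FPKM and entered this fit, and 0 of the 10 passed. All 10 had groups that did not overlap, lower with DOPAC, as did 4.80% of the genes tested, and without DOPAC replicate 1 all 10 again did, as did 10.8% of the genes tested. Since the genes were chosen on this comparison, nothing is read from these counts. The median log2 fold change of the members was -1.25, and -0.60 without DOPAC replicate 1, against 0.066 and 0.068 over all genes tested.

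Low values in DOPAC replicate 1 were uncommon among genes. Of the 10887 genes tested, 63 (0.579%) measured less than 10% of their control mean in that library, the 10 members and 53 others. A library lay below 10% of the lowest of the other 5 in 31 genes for DOPAC replicate 1, in 8, 2 and 4 genes for control replicates 1, 2 and 3, and in 1 gene each for DOPAC replicates 2 and 3. In the 53 other genes DOPAC replicates 2 and 3 averaged a median of 44.03% of the control mean. The choice of these genes used the same control mean as divisor, so low shares in replicates 2 and 3 are partly built in.

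Several of the genes with the most similar levels over the 6 libraries also encode matrix proteins or enzymes and chaperones of collagen. Likeness was the Pearson correlation of log2(FPKM + 1) with the mean of the members over 6 libraries, among 2218 genes with a mean of at least 1 FPKM and a range of at least 1 on the log2 scale. It is a description, and most of it rests on 1 library, DOPAC replicate 1. The 10 highest were Thbs1 (0.998), Col12a1 (0.998), Serpinh1 (0.997), Lox (0.997), Sfrp2 (0.996), Igfbp2 (0.994), Col6a1 (0.993), Apod (0.991), Ccn1 (0.991) and Gas6 (0.989). Among the members themselves the lowest value was 0.987.

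Thbs1 encodes thrombospondin 1, a matrix glycoprotein also stored in platelets. It measured 13.0, 12.2 and 11.3 FPKM in control replicates 1, 2 and 3 and 0.238, 7.38 and 7.07 FPKM in DOPAC replicates 1, 2 and 3. Serpinh1 encodes HSP47, a chaperone of the endoplasmic reticulum that is specific for collagen, and measured 5.35, 5.57 and 5.55 FPKM in the controls and 0.0900, 2.80 and 3.08 FPKM with DOPAC. Lox encodes lysyl oxidase, which crosslinks collagen and elastin, and measured 4.05, 4.58 and 4.04 FPKM in the controls and 0.0545, 2.32 and 2.39 FPKM with DOPAC. Across the 10 genes DOPAC replicate 1 held between 0% (Apod) and 11.4% (Ccn1) of the control mean, and DOPAC replicates 2 and 3 between 53.6% (Serpinh1) and 73.6% (Ccn1). The ranges of both overlapped those of the members, which follows from picking these genes by likeness over the same libraries.

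Matrix genes outside the members were mostly lower with DOPAC, but not all of them shared the pattern. Of 91 other collagens, matrix glycoproteins and proteoglycans on a list drawn up by function, 19 were in the deposited table and 15 passed the filter. Of the 15, 13 had a log2 fold change below 0, a direction found in 37.9% of all genes tested. Some of the 15 passed the filter only through their controls, so this count is a description. Comp had a control mean of 1.512 FPKM and a DOPAC mean of 0.685 FPKM, and Col12a1 had 1.955 and 0.782 FPKM. Without the filter 17 of 19 were below 0. In limma's test 0 had an adjusted p under 0.05. At an unadjusted p under 0.05 there were 5, all lower, against 4.19% of all genes in either direction. The median of the 15 was -0.60, and -0.30 without DOPAC replicate 1. In 7 of the 15, DOPAC replicate 1 held less than 10% of the control mean. The 7 were Thbs1, Col6a1, Col12a1, Comp, Spp1, Ogn and Sparcl1, the last pair named after their values were seen.

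Col12a1, a collagen that coats type I fibrils, measured 2.05, 1.91 and 1.91 FPKM in the controls and 0.00711, 1.16 and 1.18 FPKM with DOPAC (log2 fold change -0.81, 95% interval -1.54 to -0.094; limma adjusted p = 0.801; -0.45 without DOPAC replicate 1). Col6a1, of the beaded filament collagen type VI, gave -0.80 on the same scale (95% interval -1.67 to 0.064; limma adjusted p = 0.801; -0.36 without DOPAC replicate 1). Col11a2, a chain of the cartilage collagen type XI, measured 1.32, 1.92 and 2.01 FPKM in the controls and 1.45, 1.54 and 1.45 FPKM with DOPAC. It did not share the low value in DOPAC replicate 1, and its log2 fold change was -0.14 (95% interval -0.47 to 0.19). Srgn encodes serglycin, the proteoglycan of cytotoxic granules, and measured 106, 104 and 121 FPKM in the controls and 132, 113 and 119 FPKM with DOPAC, so that the groups overlapped (log2 fold change 0.14, 95% interval -0.16 to 0.44). Spp1, which encodes osteopontin, measured 10.4, 68.8 and 46.07 FPKM in the controls and 2.51, 3.14 and 4.58 FPKM with DOPAC. Its DOPAC replicate 1 lay close to the other DOPAC libraries, and it was 1 of the 2 genes called without control replicate 1 (log2 fold change -3.73, limma adjusted p = 0.030). With DOPAC replicate 1 also left out it no longer passed (-3.58, limma adjusted p = 0.062).

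**Figure D4:**
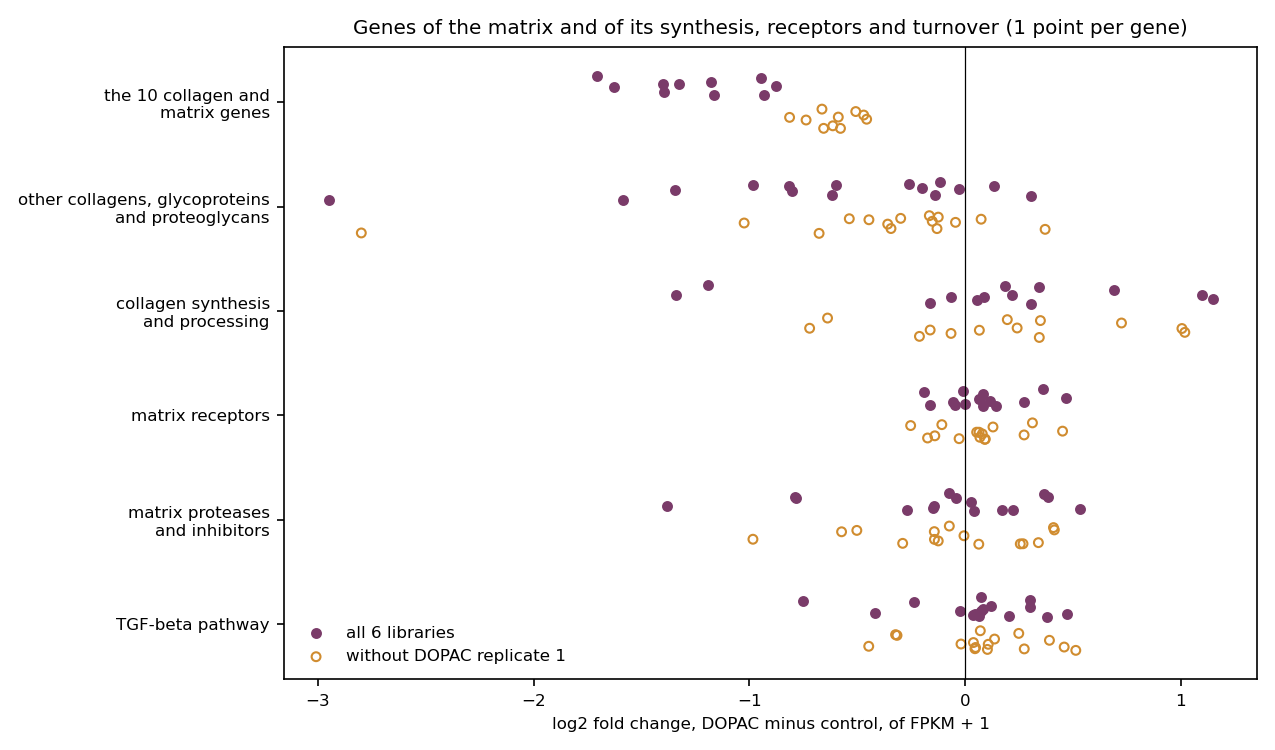
Log2 fold change of FPKM + 1, DOPAC minus control, for each tested gene of 6 groups by function, with all 6 libraries (filled) and without DOPAC replicate 1 (open). The 10 members lie between -1.71 and -0.88 and move to between -0.81 and -0.46 without that library, while the matrix receptors lie between -0.19 and 0.47 with all libraries.

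Genes that make and modify collagen did not share 1 direction. Of 13 tested genes on that list (30 listed), 4 were below 0 and 9 above, with a median of 0.18 (0.20 without DOPAC replicate 1) and 0 passing limma's adjusted threshold. Serpinh1 and Lox, given above, were the 2 that measured less than 10% of the control mean in DOPAC replicate 1. The prolyl hydroxylase subunits and Ppib did not share this. At an unadjusted p under 0.05 in limma's test 3 genes were higher and 2, Serpinh1 and Lox, lower, against 4.19% of all genes in either direction. The 3 were P4ha1, P4ha2 and Plod2. P4ha2 and Plod2, named after their values were seen, had log2 fold changes of 1.15 and 1.10 (limma adjusted p = 0.801 each). Without control replicate 1 these were 1.10 and 0.88. P4ha2 measured only 0.269, 0.582 and 0.266 FPKM in the controls and 2.62, 1.705 and 1.83 FPKM with DOPAC. It thus passed the filter only through the DOPAC libraries. Below 0 were 37.9% of all genes tested. P4ha1, a catalytic subunit of collagen prolyl 4-hydroxylase, measured 15.4, 30.7 and 23.6 FPKM in the controls and 35.0, 37.5 and 37.8 FPKM with DOPAC (log2 fold change 0.69, 95% interval 0.12 to 1.27; limma adjusted p = 0.801, and 0.43 without control replicate 1). P4hb, the disulfide isomerase subunit of that enzyme, had 0.34 (95% interval -0.025 to 0.71), or 0.19 without control replicate 1. Ppib, the prolyl isomerase cyclophilin B, had -0.16 (95% interval -0.76 to 0.43).

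Receptors for matrix, several of which T cells are known to express, did not have low values in DOPAC replicate 1. Of 15 tested genes (29 listed) 10 were above 0, with a median of 0.070 and 0 passing, and none measured less than 10% of its control mean in DOPAC replicate 1. Without control replicate 1 the median turned to -0.16, against -0.011 over all genes tested. As background for the counts in this paragraph, 37.9% of all genes tested were below 0 with all libraries. In limma's test 4.19% of all genes had an unadjusted p under 0.05, in either direction. Itgb1, the β1 integrin chain that pairs with the fibronectin and collagen binding α chains, measured 43.2, 69.1 and 69.9 FPKM in the controls and 84.4, 77.9 and 85.4 FPKM with DOPAC (log2 fold change 0.47, 95% interval -0.018 to 0.95, or 0.24 without control replicate 1). Itgb7 had -0.16 (95% interval -0.55 to 0.23) and Cd47, a thrombospondin receptor, 0.14 (95% interval -0.20 to 0.49). Matrix proteases and their inhibitors had a median of -0.040 over 15 tested genes (36 listed), 8 of them below 0 and 0 passing, and the median was -0.14 without control replicate 1. The 3 most abundant were Adam10 at 0.17, Ctsb at -0.15 and Ctss at -0.040. In this list 3 genes were lower and 1 higher at an unadjusted p under 0.05, and the 3, named after their values were seen, were Timp3 (-1.38), Mmp2 (-0.79) and Timp2 (-0.78), each with a limma adjusted p of 0.801. Mmp2, a gelatinase, was listed at 0 in DOPAC replicate 1, and the metalloproteinase inhibitor genes Timp3 and Timp2 held 1.05% and 32.5% of their control mean there. Timp3 measured 7.67 FPKM in control replicate 1 and 2.46 and 2.50 FPKM in the other 2 controls. With DOPAC means of 0.94 and 0.544 FPKM, Timp3 and Mmp2 passed the filter only through their controls. Genes of the TGF-beta pathway, the best known inducer of collagen transcription, had a median of 0.074 over 16 tested genes (25 listed), 4 of them below 0 and 0 passing, and the median turned to -0.14 without control replicate 1. Tgfb1, the ligand, had -0.24 (95% interval -0.61 to 0.14), or -0.11 without control replicate 2, and Id3 had -0.42. The signal transducer Smad4 had 0.30, but 0.016 without control replicate 1 and 0.50 without control replicate 2. Ccn1, also on this list, had -0.75 (-0.32 without DOPAC replicate 1) and held 11.4% of its control mean in DOPAC replicate 1. Ccn2, under the filter and named after its values were seen, held 1.35% there.

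The libraries were checked against markers of T cells and of other cells, and the part of other cells in the result was not tested. All 16 CD8 T cell markers were in the table and summed to between 2496 and 2689 FPKM in the controls and between 2712 and 3358 FPKM with DOPAC, with Trac at 287.2 FPKM in DOPAC replicate 1 and between 268.3 and 303.5 FPKM in the others. Their median log2 fold change was 0.0073, with 8 above 0 and 8 below. The highest sum, in DOPAC replicate 1, held 1248 FPKM of Gzmb, a cytotoxic granule protease (535 to 809 FPKM elsewhere), and Ifng, the interferon gamma gene, measured 188 FPKM there (78.6 to 132 FPKM elsewhere). Of 20 fibroblast markers 8 were in the table, summing to 18.4 to 27.7 FPKM in the controls and 9.91 to 10.9 FPKM with DOPAC. Pdgfra, Pdgfrb and Dcn were not among the 8. Within that list Acta2, the smooth muscle actin, measured 0.362 FPKM in DOPAC replicate 1 and 2.66 to 7.59 FPKM elsewhere, while Igfbp7 measured 6.34 FPKM there and 2.69 to 8.27 FPKM elsewhere and thus made up most of the 9.91 FPKM in that library. Of the rest, named after their values were seen, DOPAC replicate 1 held 1.63% of the control mean for Lum, 2.46% for Postn, 3.02% for Mgp and 14.0% for Tagln. Gsn and Fbln1 did not share these low values and held 65.4% and 70.6% there. Of the 6 fibroblast markers tested 6 were below 0, with a median log2 fold change of -0.65 (-0.71 without DOPAC replicate 1, -0.50 without control replicate 1), 0 passing limma's adjusted threshold and 4 lower at an unadjusted p under 0.05. Among all 10887 genes tested 37.9% were below 0, and 52.7% without control replicate 1. Mgp (control mean 2.155, DOPAC mean 0.330 FPKM) and Tagln (2.015 and 0.580 FPKM) passed the filter only through their controls, so the marker count is a description. In limma's test 159 of the 10887 were lower at an unadjusted p under 0.05. Acta2 had -1.33 (-0.84 without DOPAC replicate 1), Igfbp7 -0.37 (-0.085 without control replicate 1) and Gsn -0.39 (-0.23 without control replicate 1). Of 24 chondrocyte and bone markers 5 were in the table, at 6.36 to 7.17 FPKM in the controls and 3.31 to 5.50 FPKM with DOPAC, and Col11a1 and Cnmd were listed at 0 in DOPAC replicate 1. The log2 fold change was -0.62 (-0.34 without DOPAC replicate 1) for Comp, a cartilage glycoprotein, and 0.12 for the bone factor Runx2.

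Macrophage and dendritic markers (5 of 18 in the table) summed to 68.9 to 80.8 FPKM in the controls and to 61.6, 40.02 and 39.2 FPKM in DOPAC replicates 1, 2 and 3, so DOPAC replicate 1 was the highest DOPAC library for them. Log2 fold changes were -1.93 for Lyz2, -1.36 for Apoe and -0.040 for Ctss, the most abundant of these markers. Without DOPAC replicate 1 they were -2.46, -1.83 and -0.14. Erythroid markers (2 of 10) summed to 2.72 to 10.4 FPKM in the controls and 0.280, 3.02 and 0.879 FPKM in DOPAC replicates 1, 2 and 3, with Hbb-bs at -1.30 and Hba-a1 at -0.77. Without control replicate 1 these were -0.84 and -0.35, and without DOPAC replicate 1 as well -0.59 and -0.11. Endothelial markers (2 of 12) summed to 6.49 to 10.01 and 7.63 to 8.45 FPKM, with Pecam1 at 0.12 and Eng at -0.27. B cell markers (3 of 14) summed to 147.6 to 160.0 and 129.9 to 158.6 FPKM, with Ighm at -0.088, Cd79b at -0.053 and Ighd at 0.011. The 1 CD4 T cell marker of 7 in the table, Cxcr5, had -0.18. Of 11 platelet and megakaryocyte markers and of 10 neutrophil markers 0 were in the table.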

How the data were processed

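RNA from 6 libraries (3 control, 3 DOPAC) was measured. Per the labels' protocols, TRIzol was used for RNA, a SMART-Seq HT kit for full-length cDNA and Nextera XT for paired-end libraries, and these kits keep no strand information. The tools were cutadapt 1.9 and HISAT2 2.2.1 and the build mm10, per the submitters' processing notes. How expression was estimated, and how the 11175 listed genes were selected, is not given in the sources used here. Per the file headers, the authors deposited FPKM for each gene in each library. The deposited table also holds the authors' log2 fold change, which the values computed here matched within 1e-09, and the authors' p-values, which were not used. DOPAC replicate 1 has another spelling of its treatment in its title than in its library name and treatment label.

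From the FPKM, log2(FPKM + 1) was computed, genes with a mean under 1 FPKM were left out (288 genes), and R 4.3.3 with limma 3.58.1 fitted DOPAC against control with a mean-variance trend over 10887 genes, adjusted by Benjamini and Hochberg at 0.05. The fit was tested on simulated data. Intervals are 95% intervals of that model. Depth is unknown. Positions and sequences came from GENCODE M21. Python 3.11.15 with matplotlib 3.10.9 drew the figures.

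The members and lists were chosen with earlier results of these data known. The genes named were all members, the 3 genes with the highest mean in each list, the 10 genes most like the members, and Spp1. Libraries of the same replicate number deviated together from their group means (correlations over genes of 0.34, 0.16 and 0.28, each above 0.1). Libraries of different numbers gave -0.33 to 0.24, and control replicate 2 correlated more with DOPAC replicate 3 (0.24) than with DOPAC replicate 2 (0.16). By the rule that every same-numbered pair exceeds 0.1, the replicate numbers, which come from the library names, were taken as a possible pairing. The rule cannot establish a pairing. Deviations cancel out within a group, so the values for replicates 2 and 3 depend in part on replicate 1. Control replicate 3 with DOPAC replicate 2 gave 0.19, also above 0.16. The main fit, with its intervals, p-values and counts, did not use that pairing. It entered only as the replicate block, an alternative. Alternatives were 2 other pseudocounts, 2 other filters, 2 scalings, the replicate block and leaving out each library, and both doubted libraries together.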

Additional observations from a re-analysis of the deposited data

How the results depend on the processing

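All 134 log2 fold changes of single members under the alternatives were below 0, between -2.43 and -0.42. The median of the members was -2.198 with a pseudocount of 0.1, which weights values near 0 more. Of 15 other matrix genes 13 were below 0, and 2 of 3 with a filter of 5 FPKM, which left fewer genes to test, and leaving out 1 library gave 11 to 13 of 15. The count of genes past the threshold was 0 with all libraries and 2 without control replicate 1, also when DOPAC replicate 1 was left out too (chosen after seeing the data). Spp1 was called in the first case and not in the second (limma adjusted p = 0.030 and 0.062). The cause was not tested. With the replicate block that count was 0 (lowest limma adjusted p 0.439), and the block changed no call. Equal medians moved the median of all genes from 0.066 to 0.012.

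Alternatives for the genes named beside the members were chosen after seeing the data. Signs flipped for 8 genes near 0. Leaving out libraries gave -0.15 to 0.34 for Adam10, -0.011 to 0.23 for Cd47, -0.23 to 0.073 for Cd79b, -0.21 to 0.029 for Ctss, -0.14 to 0.13 for Ighd, -0.10 to 0.27 for Pecam1, -0.37 to 0.12 for Ppib and -0.14 to 0.25 for Runx2. Ighd was -0.033 with quantile normalization and -0.036 with equal medians. Without control replicate 1 and DOPAC replicate 1 Lyz2 passed at -2.85 (limma adjusted p = 0.028).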

Other observations

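Transcripts of the nervous system were also low in DOPAC replicate 1, and these 3 were chosen after their values were seen. Mobp, a myelin gene, measured 4.77, 1.72 and 1.80 FPKM in control replicates 1, 2 and 3 and 0.122, 2.14 and 1.87 FPKM in DOPAC replicates 1, 2 and 3. Gfap, the intermediate filament of astrocytes, measured 4.73, 1.61 and 2.04 FPKM in the controls and 0.0427, 1.66 and 1.85 FPKM with DOPAC. Nefl, a neurofilament gene, measured 4.73, 1.89 and 2.15 FPKM in the controls and 0.202, 1.64 and 1.64 FPKM with DOPAC. Control replicate 1 was between 2.345 (Nefl) and 2.71 (Mobp) times the mean of the other 2 controls in these genes, where the members had a median of 1.06. For Gfap the DOPAC replicates 2 and 3 lay between control replicates 2 and 3, for Mobp they lay above both and below control replicate 1, and for Nefl they lay below all controls, as they did in each of the 10 collagen and matrix genes.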
